A study of Mus musculus with 2 samples.

Results

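The genes *P2ry12*, *Tmem119*, *Sall1*, *Gpr34*, *Olfml3*, *Sparc* and *Siglech*, known as markers of microglia in the undisturbed brain, were followed among CD45+ leukocytes of the p21 mouse brain. They were taken by symbol, and all 7 were among the 27998 genes listed. CD45+ cells had been sorted from hemi-brains of untreated C57Bl/6 mice (C57BL/6J in the study's methods), WT (galc+/+) littermates and twi (galc-/-) mice, which lack galactosylceramidase and are a model of globoid cell leukodystrophy. Tissue of 2–3 animals per genotype was pooled into 1 library each, so the animals could not be told apart and no test between genotypes was possible. All intervals are 95% intervals that cover counting error only, and they say nothing of the spread between cells or between animals.

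Microglia are the resident macrophages of the brain parenchyma. They arise from yolk sac progenitors and keep their identity through TGF-β signaling and factors such as *Sall1*, under which a set of surface receptors and secreted proteins is expressed that other leukocytes largely lack. In demyelination and lysosomal storage, microglia are known to express less of this homeostatic set and more of a disease-associated set that includes *Apoe*, *Spp1*, *Gpnmb* and *Cst7*. *P2ry12* encodes an ADP receptor that guides microglial processes, and *Gpr34* a receptor for lysophosphatidylserine. *Siglech* encodes a receptor of the sialic acid-binding lectin family that signals through the adaptor encoded by *Tyrobp*. *Tmem119* encodes a membrane protein of little known function that serves as a microglial marker, *Olfml3* and *Sparc* encode secreted glycoproteins, and *Sall1* encodes a zinc finger transcription factor.

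In GRCm38 coordinates, the 7 protein-coding genes lie on 6 chromosomes. *P2ry12* spans chr3:59216272-59262871 on the minus strand, *Olfml3* chr3:103722222-103738001 (minus), *Tmem119* chr5:113793729-113800516 (minus) and *Siglech* chr7:55768178-55778925 (plus). *Sall1* spans chr8:89027235-89044162 (minus), *Sparc* chr11:55394500-55423183 (minus) and *Gpr34* chrX:13632089-13640858 (plus). The 250 bases upstream of the RefSeq start are shown 5′ to 3′ for the members with the lowest and the highest ratio of twi to WT. These ratios are those of UMIs summed over the C1q-rich cells defined below and scaled to their totals. Capitals mark AGGAAGT, an ETS-type site of the kind bound by the macrophage factor encoded by *Spi1*.
*P2ry12*, chr3:59262986-59263235, minus strand: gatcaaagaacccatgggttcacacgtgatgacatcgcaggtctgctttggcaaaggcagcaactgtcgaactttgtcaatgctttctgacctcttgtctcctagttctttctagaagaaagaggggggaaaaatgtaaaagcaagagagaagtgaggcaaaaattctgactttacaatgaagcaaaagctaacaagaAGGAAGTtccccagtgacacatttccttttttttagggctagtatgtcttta
*Olfml3*, chr3:103738002-103738251, minus strand: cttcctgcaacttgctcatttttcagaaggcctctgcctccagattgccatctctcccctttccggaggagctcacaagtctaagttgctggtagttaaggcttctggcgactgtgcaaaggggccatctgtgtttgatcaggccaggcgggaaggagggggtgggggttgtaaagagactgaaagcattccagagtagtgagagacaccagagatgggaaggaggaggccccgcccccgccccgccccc
The *P2ry12* window held 1 AGGAAGT, 52 bases upstream of a RefSeq start that lies outside the gene span given above. The *Olfml3* window held none on either strand. The *Sparc* and *Siglech* windows held none either, and 1 of 3 *Sall1* windows held one. AGGAAGT occurred on either strand in 7.69% of the 32851 upstream windows of this length in the genome (2525 windows). The letters CAGAC, the core of sites bound by SMAD factors of the TGF-β pathway, were found once in the *P2ry12* window and not in the *Olfml3* window. The *Siglech* window held 2 and the *Sparc* window 1, and 1 of 3 *Sall1* windows held one. CAGAC occurred in 42.2% of all windows. RefSeq windows were found for 5 of the 7 genes. A match describes the letters only and is not evidence that a factor binds.

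The WT library held 3749714 UMIs in 1278 barcodes and the twi library 4807539 UMIs in 1220 barcodes. No barcode was shared by the libraries. Removal of 7 WT and 13 twi barcodes with over 15% mitochondrial UMIs left 1271 and 1207 cells, and no UMI of the 7 genes was lost with them. *Ptprc*, which encodes CD45, was seen in 61.8% of WT and 79.2% of twi cells. *Galc* gave 4 UMIs in WT and 8 in twi, none of them in the cells described next, and counts of 3′ ends cannot show whether a transcript carries the mutation. Cells with at least 3 UMIs of *C1qa*, *C1qb* and *C1qc* together, the complement genes made by brain macrophages, are called C1q-rich. Of the remaining cells, those with monocyte markers formed the monocyte class, and B cells, T or NK cells and neutrophils were set apart by markers in the same way.

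C1q-rich cells were scarce in this sort. There were 28 in WT, or 2.20% of cells (95% interval 1.47 to 3.17%), and 18 in twi, or 1.49% (0.886 to 2.35%), a ratio of shares of 0.677 (0.353 to 1.27). The direction was not stable: the ratio was 1.01 with a minimum of 1 C1q UMI and 1.04 without the cells that had at least 3 lymphocyte or neutrophil markers (12 and 12 cells left). Both libraries held few monocytes as well, 31 in WT and 48 in twi. A share of sorted cells depends on all other cells of the sort, and T or NK cells made up 28.5% of WT and 70.5% of twi cells. The C1q-rich cells of WT held 91325 UMIs and those of twi 107653. Depth per cell differed: WT cells ranged from 709 to 9290 UMIs with a median of 3115.5, and twi cells from 977 to 17027 with a median of 4337.5. Only 1 WT cell had more than 6000 UMIs, against 8 twi cells. The C1q genes took 22918 CPM (UMIs per 1000000 UMIs of the summed cells) in WT and 20631 CPM in twi, a ratio of 0.900 (0.848 to 0.956).

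The 7 genes marked the C1q-rich cells in both libraries. Every WT C1q-rich cell and 16 of the 18 twi cells carried at least 1 UMI of the 7, while 1181 of 1243 other WT cells and 1083 of 1189 other twi cells carried none. C1q-rich cells held 94.7% of the UMIs of the 7 genes in WT (1425 of 1504; 93.5 to 95.8%) and 86.1% in twi (778 of 904; 83.6 to 88.3%). In WT the share lay between 87.5% for *Sall1* and 98.5% for *Sparc*. In twi it lay between 89.4% and 100% for 6 genes and was 46.0% for *Gpr34* (58 of 126 UMIs; 37.1 to 55.1%), which is taken up further on.

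Summed over the C1q-rich cells, the 7 genes were at 15604 CPM in WT and 7227 CPM in twi, a ratio of 0.463 (0.424 to 0.506). Per cell, WT values ran from 13.5 to 291 UMIs per 10000 with a median of 184, and twi values from 0 to 215 with a median of 53.6. The groups overlapped, with 17 of 18 twi cells below the WT median and 4 below the lowest WT cell. In CPM, 4 of the 7 genes (*P2ry12*, *Gpr34*, *Siglech* and *Sall1*) were lower by at least 2-fold in twi and 0 were higher by as much. Of the 3191 genes with at least 10 UMIs in C1q-rich cells of both libraries together, 15.1% were lower by at least 2-fold and 13.4% were higher. The median log2 ratio of the 7 was -1.47, against -0.03 over the 3191 genes.

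Because twi cells were deeper, the scale decided several directions. Taken as UMIs per cell rather than CPM, the median of all 3191 genes moved to 0.85 on the log2 scale, and the 7 genes together were at 50.9 UMIs per WT cell and 43.2 per twi cell, a ratio of 0.849 (0.777 to 0.927). On that scale 129 genes were lower and 1452 higher by at least 2-fold, so 91.8% of such genes were higher, against 46.9% in CPM. Without mitochondrial and ribosomal protein genes in the total, 59.2% were higher. *P2ry12*, *Gpr34*, *Siglech* and *Sall1* were below 1 on both scales, though the interval of *Sall1* per cell held 1. Per cell, the intervals of *Tmem119* and *Sparc* held 1 and *Olfml3* was above 1.

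**Figure D1:**
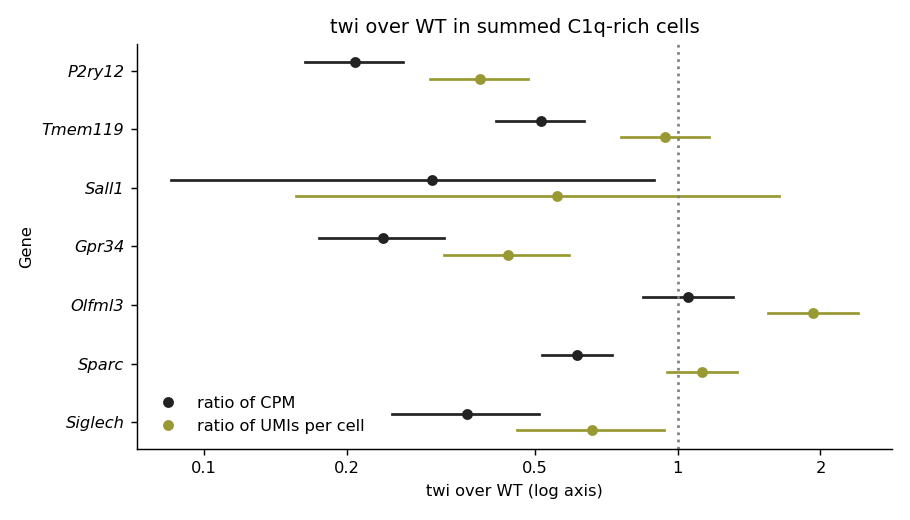
Ratio of twi to WT on a log axis for each gene in the summed C1q-rich cells (28 WT and 18 twi), as CPM (black) and as UMIs per cell (olive), with exact 95% intervals for counting error. *P2ry12* and *Gpr34* lie left of 1 on both scales, and *Olfml3* lies at 1.05 in CPM and 1.93 per cell.

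Among the receptors, *P2ry12* showed the largest difference of the 7. It gave 366 UMIs (4008 CPM; 3608 to 4440) in WT and 90 UMIs (836 CPM; 672 to 1028) in twi, 4.79-fold lower (3.80 to 6.11). Per cell, WT values ran from 0 through a median of 41.8 to 102 UMIs per 10000, and twi values from 0 through 3.95 to 27.1. All 18 twi cells lay below the WT median. *P2ry12* was seen in 26 of 28 WT cells and 13 of 18 twi cells. Of the 3191 genes, 2.41% had a lower ratio. In UMIs per cell the levels were 13.1 and 5.0, a ratio of 0.383 (0.300 to 0.483).

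*Gpr34* differed by a similar size, from 206 UMIs (2256 CPM) in WT to 58 UMIs (539 CPM) in twi, 4.19-fold lower (3.11 to 5.70). Per cell, WT ran from 0 through 25.4 to 51.9 UMIs per 10000 and twi from 0 through 5.08 to 28.9, with 16 of 18 twi cells below the WT median. It was seen in 25 WT and 14 twi cells. Per cell, 7.36 UMIs in WT stood against 3.22 in twi, a ratio of 0.438 (0.321 to 0.589).

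*Siglech*, the third receptor, gave 111 UMIs (1215 CPM) in WT and 47 (437 CPM) in twi, 2.78-fold lower (1.96 to 4.004). WT cells ran from 0 through 11.03 to 42.1 UMIs per 10000 and twi cells from 0 through 3.52 to 37.7, so the ranges overlapped widely, and 14 of 18 twi cells lay below the WT median. The ratio of UMIs per cell was 0.659 (0.458 to 0.934).

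*Tmem119*, the membrane marker, gave 238 UMIs (2606 CPM) in WT and 144 (1338 CPM) in twi, a CPM ratio of 0.513 (0.414 to 0.634). It was seen in 26 of 28 WT cells and 11 of 18 twi cells. WT cells ran from 0 through 25.7 to 69.4 UMIs per 10000, and twi cells from 0 through 4.24 to 81.4, the highest cell of either library being a twi cell. In UMIs per cell the ratio was 0.941 (0.760 to 1.16), so in absolute UMIs no difference in either direction could be told from counting error.

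*Sparc*, the first of the secreted proteins, gave 336 UMIs (3679 CPM) in WT and 243 (2257 CPM) in twi, a CPM ratio of 0.614 (0.518 to 0.726), but a ratio of UMIs per cell of 1.13 (0.9499 to 1.33), in the other direction. WT cells ran from 1.68 through 39.7 to 103 UMIs per 10000 and twi cells from 0 through 15.9 to 91.4. *Sparc* was seen in all 28 WT cells and in 14 of 18 twi cells.

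*Olfml3* was the member that was not lower in CPM. It gave 154 UMIs (1686 CPM; 1430 to 1975) in WT and 191 (1774 CPM; 1532 to 2044) in twi, a CPM ratio of 1.05 (0.846 to 1.31) and a ratio of UMIs per cell of 1.93 (1.55 to 2.40). Fewer twi cells carried it, 12 of 18 against 27 of 28 in WT, and those that did could carry much of it. WT cells ran from 0 through 17.03 to 39.5 UMIs per 10000 and twi cells from 0 through 10.6 to 56.5, and 12 of 18 twi cells lay below the WT median.

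*Sall1*, the only transcription factor of the 7, was near the limit of detection, with 14 UMIs (153 CPM; 83.8 to 257) in 12 WT cells and 5 UMIs (46.4 CPM; 15.1 to 108) in 4 twi cells. Its CPM ratio was 0.303 (0.0854 to 0.890), and the interval of its ratio in UMIs per cell, 0.556 (0.157 to 1.63), held 1.

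**Figure D2:**
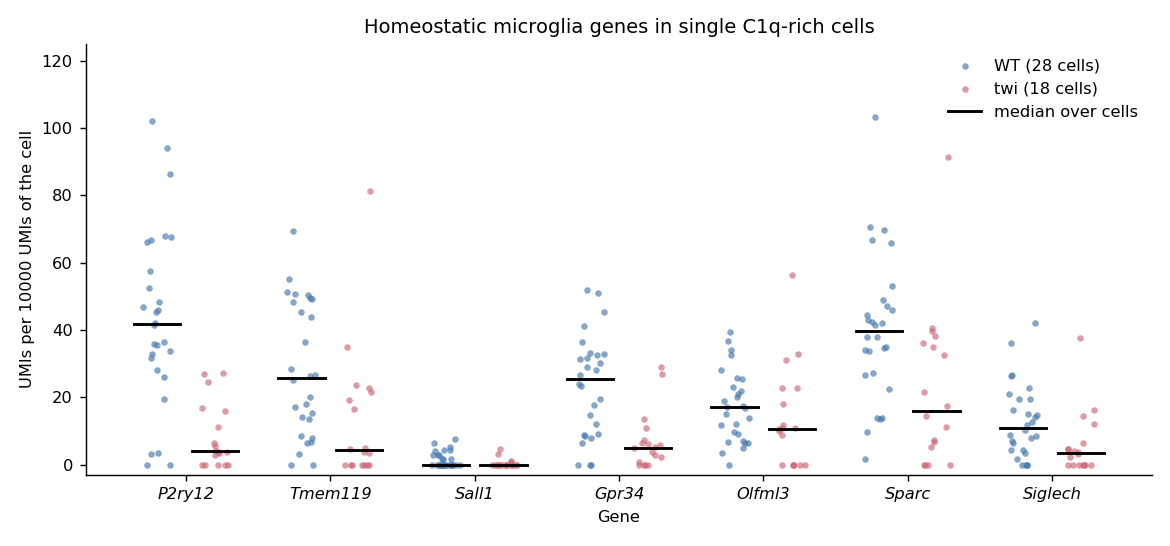
UMIs of each gene per 10000 UMIs of the cell, 1 point per C1q-rich cell, for WT (blue, 28 cells) and twi (red, 18 cells), with a black bar at the median over cells. For *P2ry12* the highest twi cell, at 27.1, lies below the WT median of 41.8, while for *Tmem119* and *Olfml3* the highest cell is a twi cell.

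The make-up of the set was compared next, since a share of the set's own UMIs does not depend on the scaling of the libraries. It still depends on which cells give the UMIs. *P2ry12* took 25.7% of the UMIs of the 7 genes in WT (366 of 1425; 23.4 to 28.0%) and 11.6% in twi (90 of 778; 9.41 to 14.03%). *Gpr34* took 14.5% in WT and 7.46% in twi. *Olfml3* went the other way, from 10.8% in WT (9.24 to 12.5%) to 24.6% in twi (21.6 to 27.7%), and *Sparc* went from 23.6% to 31.2%. *Tmem119* was at 16.7% and 18.5% and *Siglech* at 7.79% and 6.04%. The 8 twi cells with more than 6000 UMIs gave 654 of the 778 twi UMIs. In the 27 WT and 10 twi cells of at most 6000 UMIs, *Olfml3* took 10.6% and 11.3% and *Gpr34* 14.2% and 12.9%. There *P2ry12* took 26.1% and 14.5%, *Sparc* 23.5% and 29.8%, *Tmem119* 16.9% and 18.5%, and *Siglech* 7.69% and 12.1%. In the 8 deep twi cells *Olfml3* took 27.1% (23.7 to 30.6%), above the interval of the other 10 (6.31 to 18.2%). *Gpr34* took 6.42% (4.67 to 8.58%) in the deep twi cells, and this interval overlapped that of the other 10 (7.56 to 20.1%). With only 1 WT cell above 6000 UMIs, the deep twi cells had no WT cells of like depth beside them.

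For *P2ry12* and *Olfml3*, a pair chosen after the values were seen, there were 0.421 *Olfml3* UMIs per *P2ry12* UMI in WT and 2.12 in twi. *Olfml3* gave more UMIs than *P2ry12* in 2 of 28 WT cells and fewer in 23, and in twi it gave more in 9 of 18 cells and fewer in 6. In the 4 twi and 16 WT cells with a Y-linked UMI and no *Xist* UMI, the ratio was 2.60 in twi and 0.465 in WT. It was uneven over depth in twi. The 8 twi cells with more than 6000 UMIs gave 2.46 (177 and 72 UMIs) and the other 10 gave 0.778 (14 and 18 UMIs), against 0.408 (148 and 363 UMIs) in the 27 WT cells of at most 6000 UMIs.

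The same cut at 6000 UMIs, also chosen after the data were seen, was therefore applied to all 7 genes, and *P2ry12* was low on both sides of it in twi. It was at 862 CPM in the 8 deep twi cells and 745 CPM in the other 10, with overlapping intervals, against 4425 CPM in the WT cells of at most 6000 UMIs. *Gpr34* was likewise at 503 and 662 CPM in twi and at 2414 CPM in WT. *Siglech* was at 383 and 621 CPM in twi and 1304 CPM in WT. *Sall1*, from 4 and 1 UMIs, was at 47.9 and 41.4 CPM in twi and 171 CPM in WT. *Olfml3* was at 2120 CPM in the deep twi cells but at 579 CPM in the others, below the 1804 CPM of the WT cells of that depth. *Tmem119* was at 1449 and 952 CPM in twi and 2865 CPM in WT, and *Sparc* at 2467 and 1531 CPM against 3986 CPM. The deepest of those other 10 twi cells, of 2676, 3829 and 4846 UMIs, gave no *Olfml3*, *Tmem119* or *Sparc* UMI. The cells of 2676 and 3829 UMIs had 4 monocyte markers each, and that of 4846 UMIs had only 4 C1q UMIs. The levels at this depth thus depend on which cells fell there, and levels without these cells were not computed. The only WT cell above 6000 UMIs also had little *P2ry12*, 3 of 9290 UMIs.

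How many of the 7 genes a cell carried also differed. At least 5 were seen in 26 of 28 WT cells and 10 of 18 twi cells, and all 7 in 10 WT and 3 twi cells. With every cell thinned to 1000 UMIs, which left out 2 WT cells and 1 twi cell, a median of 5.54 genes was to be seen per WT cell and 2.91 per twi cell. At that depth the share of cells with *P2ry12* was 89.8% in WT and 46.9% in twi (unthinned 92.9% and 72.2%), and that with *Gpr34* 81.9% and 43.4% (89.3% and 77.8%). B cells, which should lack *P2ry12*, had a median of 2005 UMIs in WT and 2213 in twi. Among them *P2ry12* was seen in 0.885% of 565 WT cells and in 0 of 171 twi cells (exact upper limit 2.13%).

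The twi C1q-rich cells were not of 1 kind. A pair of twi cells carried no UMI of the 7 genes. The first had 977 UMIs in all and 10 C1q UMIs. The second had 3829 UMIs, 53 C1q UMIs, 4 of 6 monocyte markers, 173 UMIs of *Cd74* and 33 of *H2-Aa*, which encode parts of the MHC class II machinery. Another twi cell with 4 monocyte markers, 3 border macrophage markers and 12 UMIs of *Ccr2* had 3 UMIs of the 7 genes among 2676. A twi cell of 12000 UMIs had 239 C1q UMIs, 18 of *Gpnmb* and 17 of *Ms4a7* but 0 of *P2ry12*, and 27 of the 7 genes together. At the other end, twi cells of 1859 and 2210 UMIs carried 40 UMIs of the 7 genes each, or 215 and 181 per 10000, near the WT median. These cells were picked after their values were seen, and a C1q-rich cell need not be a microglial cell.

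In WT, 4 cells lay near the bottom. The deepest WT cell, with 9290 UMIs and 127 UMIs of *Apoe*, had 35.5 UMIs of the 7 genes per 10000. A WT cell of 1451 UMIs carried 84 UMIs of 12 interferon-response genes and had neither *P2ry12* nor *Tmem119*. A WT cell of 731 UMIs with 4 C1q UMIs had 2 UMIs of the 7 genes. The lowest WT cell, at 13.5 per 10000, had 5 C1q UMIs among 5944 and 9 different markers of lymphocytes or neutrophils.

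Markers of other cell types moved with genotype in the C1q-rich cells, and their part in the differences was not tested. Neutrophil markers gave 476 UMIs in WT and 25 in twi, B cell markers 19 and 3, and T cell markers 54 and 35. At least 3 lymphocyte or neutrophil markers were seen in 16 of 28 WT and 6 of 18 twi cells, and without those cells the ratio of the 7 genes was 0.307, further from 1. Monocyte markers other than *Csf1r* gave 6 UMIs in WT and 50 in twi, led by *Ms4a6c* (4 and 24) and *Ccr2* (2 and 17), with *F13a1* at 0 in both. Without the 3 twi cells that had at least 3 monocyte markers, the ratio was 0.526. Of 8 border macrophage markers, 5 (*Cd163*, *Lyve1*, *Pf4*, *Cbr2* and *Folr2*) were at 0 in both libraries, and *Ms4a7* was at 0 in WT and 19 UMIs in twi. Without the 2 twi cells with at least 2 such markers, the ratio was 0.422. Astrocyte, oligodendrocyte, endothelial and pericyte markers gave at most 8 UMIs each per library.

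Sex-linked transcripts differed between the pools as well. *Xist* was seen in 0 of 28 WT and 8 of 18 twi C1q-rich cells, and a Y-linked UMI without *Xist* in 16 and 4. Between those 16 WT and 4 twi cells, the CPM ratio was 0.351 for *P2ry12*, 0.328 for the X-linked *Gpr34* and 0.677 for *Siglech*, but 0.994 for *Tmem119*, 0.955 for *Sparc* and 1.96 for *Olfml3*, and 0.814 for the 7 together. The differences in *P2ry12* and *Gpr34* were thus present among these cells, and those in *Tmem119* and *Sparc* were not seen there. These 4 twi cells were at 215, 181, 166 and 22.5 UMIs of the 7 genes per 10000, against a median of 53.6 over all 18. No other twi cell reached 166. With 4 twi cells, sex and single cells cannot be told apart.

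Other genes of the homeostatic program, on a list of 14, were next set beside the 7. All 14 were lower in twi in CPM, 7 of them by at least 2-fold, against 15.1% of the 3191 genes. Their median log2 ratio was -1.04, and their sum went from 79201 to 34472 CPM (ratio 0.435; 0.418 to 0.453). *Cst3* alone gave 4273 of the list's 7233 UMIs in WT and 1739 of 3711 in twi. *Sall3*, a relative of *Sall1*, gave 11 UMIs in WT and 0 in twi (at least 2.96-fold lower by the exact interval). The ratios of *Sall3* and of *Slc2a5*, a fructose transporter with 44 and 7 UMIs (0.135; 0.0513 to 0.302), were the lowest. The highest were those of the TGF-β receptor gene *Tgfbr1* (44 and 39 UMIs; 0.752) and the leukotriene synthase gene *Ltc4s* (59 and 52 UMIs; 0.748), whose intervals held 1. In UMIs per cell, both of these were above 1, at 1.38 and 1.37. On that scale 8 of the 14 were lower and 6 higher in twi, while the median log2 ratio of all 3191 genes was 0.85. The sum of the list was 258 UMIs per WT cell and 206 per twi cell, a ratio of 0.798 (0.767 to 0.830). *Cst3* made up 153 and 96.6 of these UMIs, and without it the sum per cell was not lower in twi.

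Of the disease-associated genes, 15 of 16 listed were found and 13 reached 10 UMIs. Of these, 10 were higher and 3 lower in twi in CPM, with a median log2 ratio of 0.63. *Apoe*, 1 of the 3, gave 251 UMIs in WT and 277 in twi (0.936; 0.786 to 1.12), and 127 of its WT UMIs were in 1 cell. Its ratio of UMIs per cell was 1.72. By at least 2-fold, 6 of the 13 were higher, against 13.4% of the 3191 genes. *Spp1*, which encodes osteopontin, gave 0 UMIs in WT and 27 in twi (at least 5.79-fold higher by the exact interval). *Ch25h*, a cholesterol 25-hydroxylase, gave 0 and 22 (at least 4.65-fold higher). Few cells carried them. Of the *Spp1* UMIs, 23 were in 2 of the 18 twi cells, 14 twi cells had none, and 4 UMIs were left without the 3 cells that had at least 3 monocyte markers. Of the *Ch25h* UMIs, 21 were in 2 twi cells and 15 cells had none. *Gpnmb*, also among the 6 genes higher by at least 2-fold, gave 0 UMIs in WT and 18 in twi, all in 1 cell. The lowest ratios were those of the lipid receptor gene *Trem2* (182 and 144 UMIs; 0.671; 0.536 to 0.840) and of the lysozyme gene *Lyz2* (102 and 102 UMIs; 0.848; 0.638 to 1.13), and both were above 1 in UMIs per cell (1.23 and 1.56). On that scale the median log2 ratio of all 3191 genes was 0.85.

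Over single cells, the level of the 7 genes went with that of the 14 companion genes (Pearson r = 0.802 over 28 WT cells and 0.910 over 18 twi cells) and much less with that of the disease-associated genes (r = -0.250 and -0.219). With the level of the C1q genes, r was 0.574 in WT and 0.591 in twi. The points of each r are cells of 1 library, and all of their values are divided by the same total of the cell. How much of each r came from C1q-rich cells that are not microglia was not tested. Companion genes ran from 50.5 through a median of 821 to 1378 UMIs per 10000 in WT and from 64.0 through 234 to 947 in twi. *Cst3* weighed most in this level, and r without it was not computed.

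**Figure D3:**
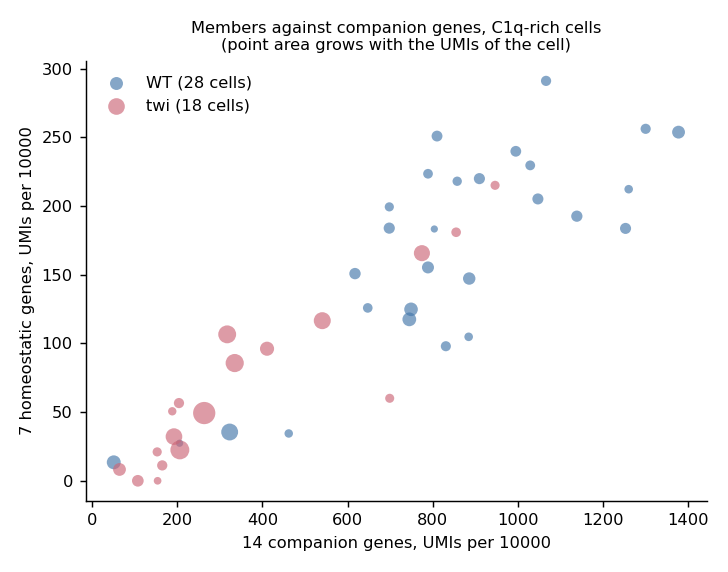
UMIs per 10000 of the 7 homeostatic genes (vertical) against those of the 14 companion genes (horizontal), 1 point per C1q-rich cell, WT in blue and twi in red, with point area growing with the UMIs of the cell. Most twi cells lie toward the lower left, with medians of 53.6 and 234 against 184 and 821 in WT, and 3 twi cells lie among the WT cells.

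The genes with a pattern most like that of the 7 were sought over the 11 sums of a library and a cell class that had at least 20 cells, using log2(CPM + 10). The twi C1q-rich cells, being 18, were not among these sums, so the likeness rests on WT. Only the WT C1q-rich sum was high in the 7 genes, at 15604 CPM against at most 100 CPM in the others. Each r thus rests largely on 1 point, and *C1qc* is part of the rule that defines the class. The 10 genes of highest r, from 0.993 down to 0.988, were *Fscn1*, *Ecscr*, *Pmp22*, *Spint1*, *Slc2a5*, *Adamts1*, *Slco2b1*, *Mertk*, *Gas6* and *C1qc*. In C1q-rich cells, 6 of them were lower and 4 higher in twi in CPM. *Fscn1* (36 and 11 UMIs) and *Slco2b1* (73 and 31 UMIs) were lower with the 7 genes, at log2 ratios of -1.90 and -1.46, and *Spint1* (7 and 21 UMIs) was higher, at 1.28.

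Outside the C1q-rich cells, the 7 genes were rare. In monocytes they gave 5 UMIs in WT (19.0 CPM; 6.17 to 44.4) and 20 in twi (68.1 CPM; 41.6 to 105). *Tmem119* gave 12 of the 20 UMIs in 3 twi monocytes (40.9 CPM; 21.1 to 71.4), and 7 of these were in 1 cell of 6911 UMIs, which had 5 of the 6 monocyte markers and no C1q UMI. *Tmem119* had 2 UMIs in WT monocytes. *Gpr34* and *Siglech* had none in the monocytes of either library, which allows at most 11.4 CPM in WT and 10.2 CPM in twi. In neutrophils and B cells, the 7 genes together were between 6.77 and 17.2 CPM.

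**Figure D4:**
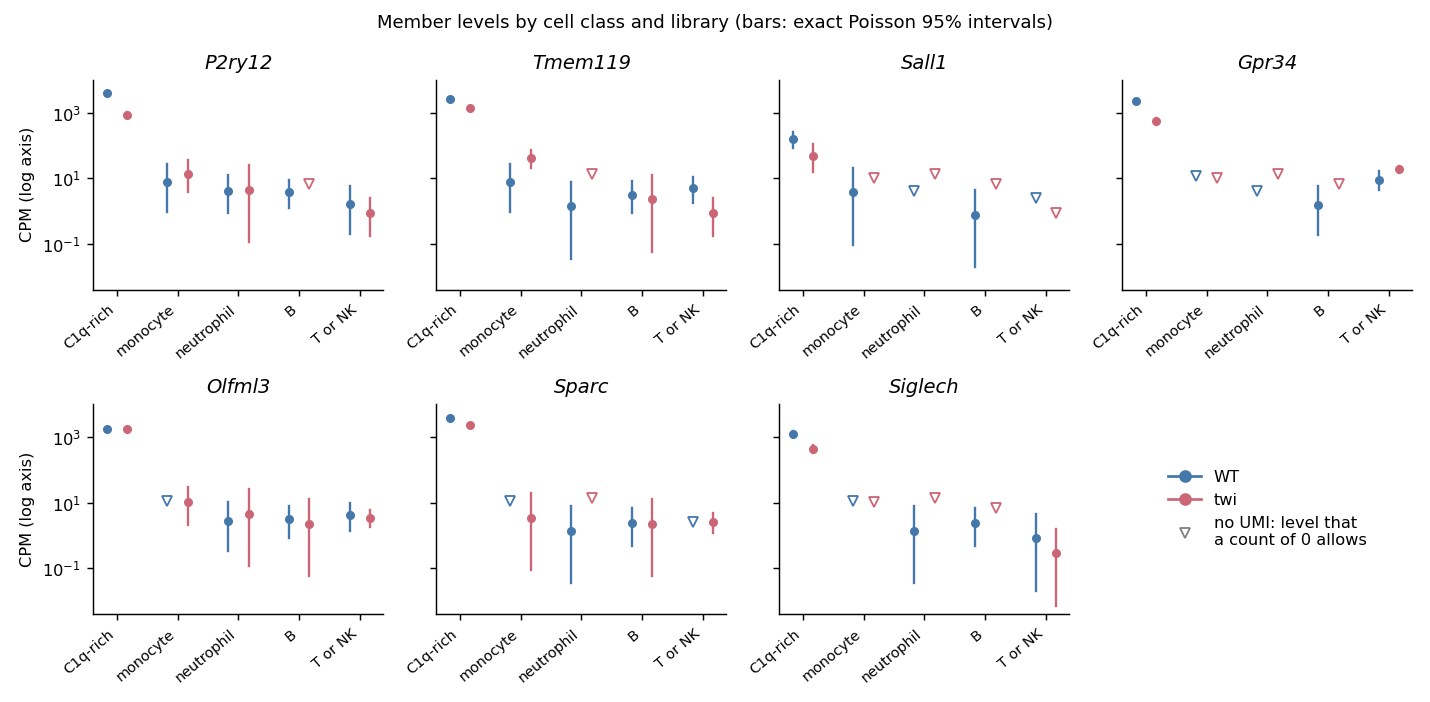
CPM of each gene on a log axis by cell class, WT in blue and twi in red, with exact Poisson 95% intervals and open triangles at the level that a count of 0 allows. All 7 genes are highest in C1q-rich cells, and *Gpr34* is at 19.3 CPM in twi T or NK cells.

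*Gpr34* differed from the other 6 in its UMIs among lymphocytes. T or NK cells held 11 *Gpr34* UMIs in WT (9.11 CPM; 4.55 to 16.3) and 68 in twi (19.3 CPM; 14.96 to 24.4), a ratio of 2.11 (1.11 to 4.43). In the same cells *P2ry12* gave 2 and 3 UMIs, *Tmem119* 6 and 3, *Olfml3* 5 and 12 (4.14 and 3.40 CPM) and *Sparc* 0 and 9, the latter at 2.55 CPM in twi. Cells with a *Gpr34* UMI were 3.04% of 362 T or NK cells in WT and 7.29% of 851 in twi, with medians of 3011.5 and 3579 UMIs per cell. Thinned to 1000 UMIs, the shares were 1.10% and 1.81%. In B cells, *Gpr34* was seen in 2 of 565 WT cells (0.354%) and 0 of 171 twi cells (exact upper limit 2.13%), at medians of 2005 and 2213 UMIs. It was seen in 0 of 230 WT and 0 of 66 twi neutrophils, with exact upper limits of 1.59% and 5.44%.

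Among the lymphocytes, groups were formed by single genes after the first values had been seen. Cells with *Cd8a* or *Cd8b1* and without *Cd4* held *Gpr34* in 1 of 110 WT cells (0.909%; 0.0230 to 4.96%) and 34 of 438 twi cells (7.76%; 5.44 to 10.7%), or 0.234% and 1.61% when thinned. The CPM ratio of 8.17 rests on 1 WT UMI, and its interval is 1.38 to 331. Cells with a *Cd3* gene and neither *Cd4* nor *Cd8* held it in 6.82% of 132 WT and 8.55% of 269 twi cells, a CPM ratio of 1.13 (0.511 to 2.73). Cells with *Cd4* alone held it in 1 of 46 and 1 of 72 cells. Among the 62 twi T or NK cells with *Gpr34*, 9 also had a C1q UMI, and 48 of all 851 had one.

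**Figure D5:**
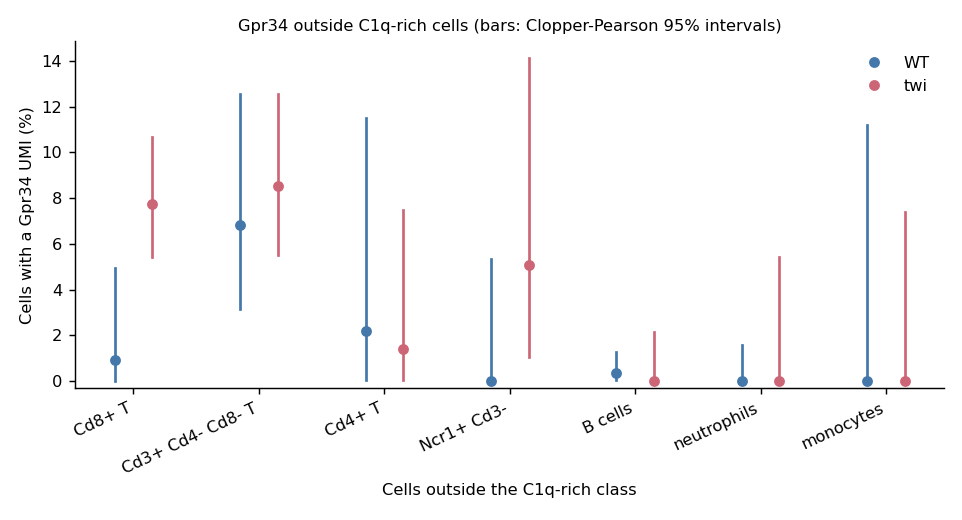
Percent of cells with a *Gpr34* UMI in 4 groups of T or NK cells and in B cells, neutrophils and monocytes, WT in blue and twi in red, with Clopper-Pearson 95% intervals. The twi cells with *Cd8* stand at 7.76% against 0.909% in WT, and *Cd3* cells without *Cd4* or *Cd8* stand at 8.55% and 6.82%.

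*Siglech*, which plasmacytoid dendritic cells are also known to express, gave 14 UMIs among the WT cells that were neither C1q-rich nor monocytes, and 9 of these were in 1 unclassified cell of 14883 UMIs. That cell had 2 *P2ry12* UMIs, 0 C1q UMIs, 3 of 6 plasmacytoid and 3 of 6 conventional dendritic cell markers, a tie that left it unclassified, 12 UMIs of *Tcf4* and 33 of *Irf8*. In twi, such cells held 2 *Siglech* UMIs in all, 1 of them in a cell classed as a conventional dendritic cell. The 1 twi cell classed as plasmacytoid, of 3759 UMIs, held 0.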

How the data were processed

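For each library the authors deposited 1 table of unnormalized UMI counts, made from 10x Genomics single cell 3′ v2 libraries with Cell Ranger 2.1.1 and mm10 per the submitters' processing notes, with STAR as the aligner. The paper gives digestion with collagenase D for 30 min, the labels collagenase and dispase for longer. The 7 genes, the lists and the cell rule were chosen with earlier results of these data known. Barcodes with at most 15% mitochondrial UMIs were kept. Cells outside the C1q-rich class went to the class with the most distinct markers, at least 2, of 6 per list, ties were left unclassified, and doublets were not called. UMIs were summed per library and class and scaled to CPM. Exact intervals were computed for sums (Poisson), their ratios (conditional) and shares (Clopper-Pearson) (scipy 1.17.1, numpy 2.4.6, pandas 2.3.3, Python 3.11.15). What a count of 0 allows was taken as 3 counts over the total, which is less than the upper limit of the exact interval. Log2 ratios used a pseudocount of 0.5 UMIs. Thinning to 1000 UMIs was the exact hypergeometric expectation. With 1 library per genotype no test was run. A TMM factor from edgeR 4.0.16 was an alternative scaling. The intervals were tried on counts simulated for twi over WT in C1q-rich cells as Poisson draws, the model that the intervals assume. Over 3191 genes, they held the true fold for 98.3% of 58 genes lowered 5-fold and for 95.8% of 48 genes raised 5-fold. The draws left out the spread between cells and animals, so they check the computation only. Genes were named by rule: the 7, *Galc*, the C1q genes, the 2 highest and 2 lowest ratios of the companion and disease-associated lists and the 10 genes of likest pattern; other names were chosen after their values were seen. *Clec7a* was not used here. Gene coordinates are from GENCODE for GRCm38, the assembly called mm10, and upstream sequences from RefSeq (GRCm38.p6).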

Additional observations from a re-analysis of the deposited data

How the results depend on the processing

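No paired analysis was possible because each genotype had 1 library only, and each value rests on 28 WT and 18 twi cells or fewer. The ratio of the 7 genes stayed below 1 under all 15 alternatives, from 0.307 to 0.849. It was 0.363 with a minimum of 1 C1q UMI (78 and 75 cells), 0.422 without cells with border macrophage markers, 0.307 without cells with lymphocyte or neutrophil markers, 0.814 in cells with a Y-linked UMI and no *Xist*, 0.507 without mitochondrial and ribosomal protein genes, 0.849 in UMIs per cell and 0.417 without *Sparc*. It was 0.526 without cells with at least 3 monocyte markers, an alternative chosen after seeing the data, as were a minimum of 30 C1q UMIs and leaving out the deepest cells. The ratio of C1q-rich shares ranged from 0.588 to 1.04. The median log2 ratio was -0.30 in cells with a Y-linked UMI and no *Xist* and -0.59 in UMIs per cell. With a minimum of 1 C1q UMI, 41.0% of WT and 34.7% of twi cells carried one of the 7 genes, and 100% of the 4 twi cells with a Y-linked UMI did. The C1q-rich share of the UMIs of the 7 genes was 87.2% in WT and 77.0% in twi without cells with lymphocyte or neutrophil markers, 83.5% in twi without those with border macrophage markers and 93.5% in twi in cells with a Y-linked UMI. The *Sparc* ratio turned from below 1 to 1.13 in UMIs per cell, where the total of the cell no longer divides the count. *P2ry12* ranged from 0.114 to 0.383 and *Gpr34* from 0.189 to 0.438, while *Tmem119* ranged from 0.334 to 0.994 and *Olfml3* from 0.700 to 1.96; the causes were not tested.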

Other observations

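Among the C1q-rich cells, 12 interferon-response genes gave 127 UMIs in WT and 233 in twi, a CPM ratio of 1.56 (1.25 to 1.95), and the list was uneven. Of the 11 genes with at least 10 UMIs, 7 were higher and 4 lower in twi. By at least 2-fold, 4 were higher and 2 lower, against 13.4% and 15.1% of the 3191 genes. *Bst2*, which encodes the membrane protein tetherin, gave 10 and 94 UMIs (7.97; 4.15 to 17.2), and *Irf7*, a transcription factor of the interferon response, 3 and 17. *Rsad2*, which encodes viperin, gave 37 and 3 UMIs and *Ifit1* 18 and 2, and 84 of the 127 WT UMIs of the list were in the 1 WT cell of 1451 UMIs that lacked *P2ry12* and *Tmem119*. These genes were named after their values were seen.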
